A study of Mus musculus with 6 samples.

Results

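The Krt79 cells described here are keratinocytes of the upper hair follicle, taken from single-cell RNA sequencing of mouse dorsal skin. They were chosen by their own counts. A cell was taken if it held at least 5 Krt79 UMIs per 10000 UMIs and at least 20 UMIs per 10000 of the keratins Krt5, Krt14 and Krt17 together. It also had to hold fewer than 2 UMIs of the cycling genes Mki67 and Top2a, fewer than 10 UMIs per 10000 of the collagens Col1a2 and Col3a1, and no UMI of the leukocyte gene Ptprc. UMIs count captured RNA molecules. The rule took 1334 of 50850 cells that passed the study's filters. The same rule with Krt79 under 5 per 10000 took 8694 other keratinocytes, which served for comparison, and the 10028 cells of both kinds are called keratinocytes here.

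All mice were female C57BL/6 mice, 8 to 10 weeks old. Skin of the Sham group was left untreated. In the IMQ group, 62.5 mg of 5% imiquimod cream, a Toll-like receptor agonist, was put on shaved back skin daily for 4 days to model psoriasis-like inflammation. The IMQ+SHP099 group was given the same cream and, by mouth, 10 mg/kg of SHP099 hydrochloride, an allosteric inhibitor of the phosphatase SHP2, daily for 4 days. Treated mice were killed 1 day after the last dose. Each group had 2 libraries, each pooled from the skin of more than 1 mouse, so that the spread between libraries is a spread between pools.

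Krt79 marks keratinocytes of the infundibulum, the funnel that joins the hair follicle to the skin surface, and of the duct that opens from the sebaceous gland into it. These cells line a canal that carries hair and sebum, and they differentiate towards its lumen much as interfollicular epidermis does towards the skin surface. Cst6 encodes cystatin M/E, an inhibitor of legumain and cysteine cathepsins in cornifying epithelia, and Defb6 encodes a beta-defensin, a small antimicrobial peptide. In psoriasis-like skin, keratinocytes respond to cytokines such as interleukin 17 and interleukin 22 with antimicrobial proteins, the keratins of wounded epidermis and altered cornification.

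The promoters of 5 genes on which the results turn are shown for context, as the 150 bases before each start site on the gene's own strand (RefSeq, GRCm38.p6). Krt79 chose the cells. Defb6 marks them without being part of the rule. S100a8 and Sprr2d were among the genes most raised in IMQ, and Lor among the most lowered. Capitals mark a TATA box (TATAAA) or an AP-1 motif (TGANTCA), searched on both strands.
Krt79, chr15:101940325-101940474, minus strand: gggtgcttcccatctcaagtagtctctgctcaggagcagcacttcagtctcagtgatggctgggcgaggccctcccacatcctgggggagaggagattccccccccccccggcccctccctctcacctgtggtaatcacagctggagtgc
Defb6, chr8:19225328-19225477, plus strand: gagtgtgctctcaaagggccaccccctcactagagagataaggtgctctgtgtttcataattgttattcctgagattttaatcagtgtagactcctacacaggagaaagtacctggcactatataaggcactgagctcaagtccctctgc
S100a8, chr3:90668921-90669070, plus strand: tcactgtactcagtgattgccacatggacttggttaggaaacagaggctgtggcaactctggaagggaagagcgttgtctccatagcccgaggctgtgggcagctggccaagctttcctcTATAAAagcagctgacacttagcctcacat
Sprr2d, chr3:92338990-92339139, plus strand: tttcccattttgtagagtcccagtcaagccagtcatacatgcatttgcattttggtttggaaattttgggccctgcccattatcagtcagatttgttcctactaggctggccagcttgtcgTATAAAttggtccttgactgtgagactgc
Lor, chr3:92083143-92083292, minus strand: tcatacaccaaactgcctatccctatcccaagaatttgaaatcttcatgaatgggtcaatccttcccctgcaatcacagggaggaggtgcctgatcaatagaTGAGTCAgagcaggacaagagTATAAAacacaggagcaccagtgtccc

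Within these windows the TATA box began 30 bases before the start of S100a8, 29 bases before that of Sprr2d and 27 bases before that of Lor. The AP-1 motif of Lor began 48 bases before its start. Over the 250 bases before the start, the TATA box was found in 12.4% of 32851 promoters of the genome and the AP-1 motif in 6.75%. Among the named genes raised in IMQ, 4 of 11 with a promoter in the table held the TATA box (S100a8, Serpinb3a, Serpinb3b and Sprr2d) and 1 held the AP-1 motif (Sprr2d). Among the named genes lowered in IMQ, 2 of 9 held the TATA box (Lor and Serpina3b) and 1 held the AP-1 motif (Lor). These matches describe letters in a window and no binding was measured.

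Levels are given as CPM, UMIs per 1000000 UMIs of the summed cells of a library, on library sizes scaled by the TMM method. Unscaled CPM leave that scaling out. The 6 libraries held 53913865 to 188283327 UMIs in all. Krt79 cells numbered 215 and 238 in the Sham libraries, 210 and 166 in those of IMQ and 392 and 113 in those of IMQ+SHP099. Their summed UMIs ran from 1872129 in IMQ+SHP099 replicate 2 to 8726371 in IMQ+SHP099 replicate 1. The median UMIs per Krt79 cell were lower in Sham (7866 and 11584) than in IMQ (24307.5 and 28118.5) and IMQ+SHP099 (21366.5 and 16955). Sham replicate 2 stood apart from the rest: in its Krt79 cells the Schwann cell markers summed to 152 unscaled CPM against at most 1.1 in the other libraries, and those of the inner root sheath to 184 against at most 22.4. Its Krt79 cells also held 773 CPM of Krt75, a companion layer keratin, against 0 to 1.31 in the other libraries. Pairs of libraries shared 12 to 30 barcodes. Results are given with and without a library where it decided them.

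Cst6 and Defb6, upper follicle markers that the rule did not use, were detected more often in Krt79 cells than in other keratinocytes. This is a description and no independent check of the label. The cells were chosen by their own counts, and the markers with earlier results of these data known. Cst6 was detected in 47.8% to 78.6% of Krt79 cells once every cell was thinned to 2000 UMIs, against 9.37% to 33.7% of other keratinocytes and 0.493% to 3.42% of collagen-rich cells, which should lack it. Defb6 was detected in 52.2% to 93.7% of thinned Krt79 cells, against 1.68% to 39.2% of other keratinocytes and 0.604% to 1.42% of collagen-rich cells. In Sham replicate 1 without thinning, Cst6 was detected in 86.5% of Krt79 cells, 30.2% of other keratinocytes and 6.08% of collagen-rich cells, with median depths of 7866, 8377 and 5916 UMIs. The gap between the kinds of keratinocytes was narrowest in IMQ replicate 1. There Cst6 was detected in 73.8% of Krt79 cells and 71.7% of others without thinning, at median depths of 24307.5 and 34025 UMIs. After thinning these shares were 47.8% and 33.6%, so Cst6 set the cells apart only weakly in that library. Both genes were found together in 81.9% and 51.3% of the Krt79 cells of Sham, 72.9% and 80.7% of those of IMQ and 90.3% and 72.6% of those of IMQ+SHP099. The 20 upper hair follicle markers summed to 23493 to 45720 unscaled CPM in Krt79 cells and to 1504 to 8505 in other keratinocytes. The rule takes that sum in part, since Krt79 and Krt17 are among the 20.

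Markers of other lineages were counted in the Krt79 cells as a check. Endothelial markers summed to 1.1 to 6.1 unscaled CPM over the 6 libraries, lymphocyte markers to 0 to 3.2, myeloid markers to 3.9 to 17.7 and Langerhans cell markers to 7.5 to 80.8. Fibroblast markers summed to 44.1 to 253 unscaled CPM. The 4 muscle and pericyte markers summed to 27.4 and 12.5 unscaled CPM in the Sham libraries, 51.3 and 128 in those of IMQ and 6.30 and 159 in those of IMQ+SHP099. None of the 3 tested was called in IMQ against Sham (median log2 fold change 2.56), and the part of such cells in the results below was not tested. Cells among the top 6% of Scrublet doublet scores of their library made up 2.52% to 10.6% of Krt79 cells. The limit on Krt79 lay on a slope rather than in a gap. In Sham replicate 1, for example, the 35 keratinocytes with 2.5 to 5 Krt79 UMIs per 10000 held 430 unscaled CPM of Cst6 and the 29 with 5 to 10 held 1361, while cells with at least 50 held 29414. In IMQ+SHP099 replicate 2 the order at the limit was the other way, at 443 and 306 unscaled CPM.

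Cst6 stood at 13362 and 4756 CPM in the Krt79 cells of Sham, 2595 and 5245 in those of IMQ and 14774 and 8018 in those of IMQ+SHP099. In other keratinocytes Cst6 stood at 99.8 and 45.2, 461 and 779, and 447 and 348 CPM, and the median log2 ratio of the 6 libraries was 4.78 (range 2.49 to 7.06). Defb6 stood at 6273 and 1980 CPM, 4275 and 5192, and 7730 and 12276 in Krt79 cells, with a median log2 ratio of 3.44 (range 2.17 to 6.79). The ratio of each gene was smallest in treated skin, where the other keratinocytes held more of it.

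A total of 29 of 2663 genes (1.09%) were at least 2-fold higher in Krt79 cells in every library, and 41 (1.54%) were at least 2-fold lower. Among the higher genes, Klk7 and Klk6 encode kallikreins, serine proteases that cleave the proteins holding corneocytes together. Klk7 stood at 729 and 552 CPM in the Sham libraries, 292 and 630 in those of IMQ and 673 and 688 in those of IMQ+SHP099, against 29 to 166 in other keratinocytes. Alox12e, an epidermal lipoxygenase, had a median log2 ratio of 5.03, the largest of the named genes. Foxc1, a forkhead transcription factor, had one of 2.75, and Aadac, an esterase of lipid metabolism, one of 2.72. Of the 14 upper hair follicle markers at 50 CPM or more, 5 were called higher (Defb6, Alox12e, Atp6v1c2, Cidea and Cst6), and the list's median log2 ratio was 1.08 against -0.04 over all genes. The sebaceous gland list was raised as much, with a median of 1.14 and 2 of 8 markers called higher (Soat1 and Scd1). Of 8 basal layer markers, the hemidesmosome genes Itgb4 and Col17a1 were called lower, with a list median of -1.30.

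**Figure D1:**
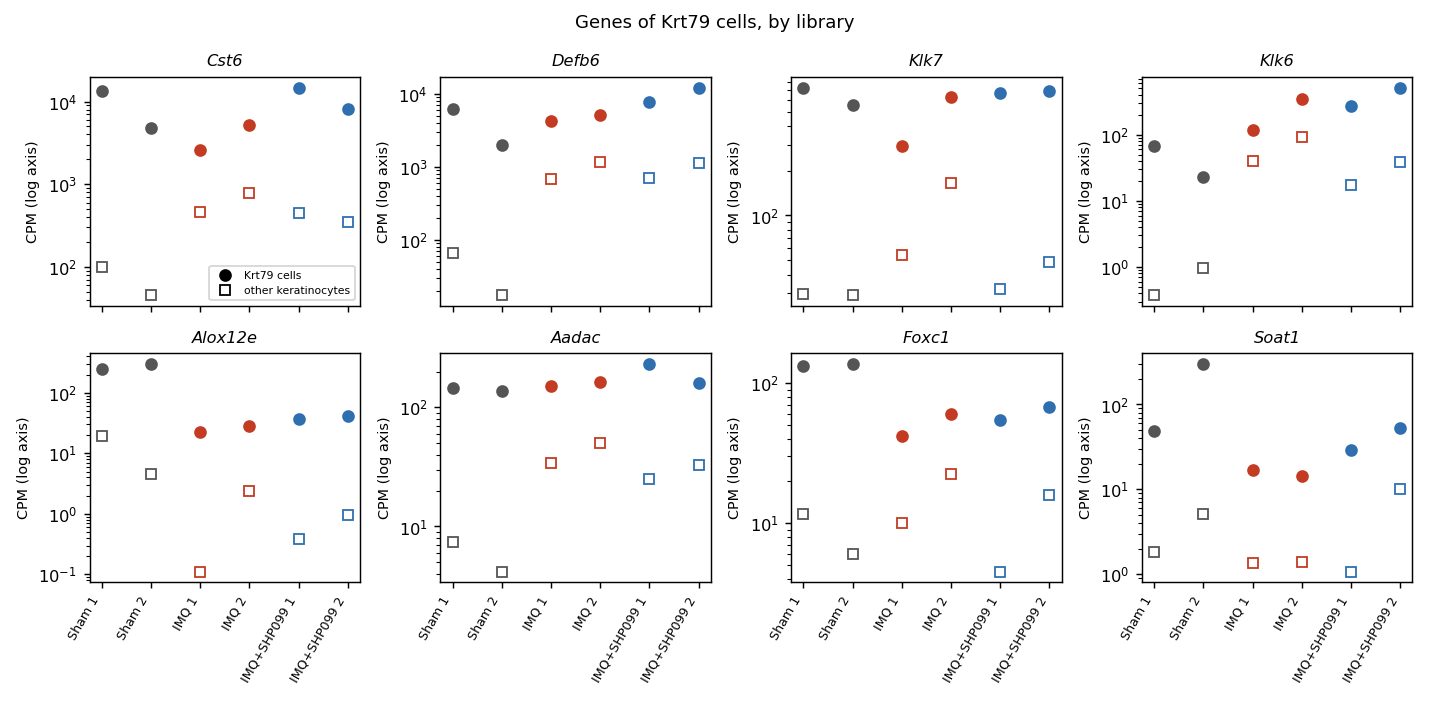
Levels of 8 genes higher in Krt79 cells (filled circles) than in other keratinocytes (open squares), in CPM on a log axis, for each of the 6 libraries. The circles lie above the squares in every library, and the gap for Cst6 and Defb6 is narrower in the 4 treated libraries than in Sham.

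The Krt79 cells were a mixture in sebaceous content. Cells with at least 20 UMIs per 10000 of the 18 sebaceous gland markers made up 5.12% and 20.2% of the Krt79 cells of Sham, 10.5% and 6.02% of those of IMQ and 5.10% and 14.2% of those of IMQ+SHP099, against 0.358% to 4.69% of other keratinocytes. In Sham these cells held 377 and 23.3 unscaled CPM of Cst6, whereas the remaining Krt79 cells held 14210 and 9696. For Defb6 the Sham values were 180 and 39.1 against 6670 and 4024, and for Klk7 they were 0 and 55.0 against 776 and 1105. The Sham cells rich in sebaceous markers thus held Krt79 (1164 and 1891 unscaled CPM) with little of the other upper follicle genes. They held 902 and 1512 unscaled CPM of Soat1, which makes cholesterol esters, and none was counted in the remaining Sham Krt79 cells, but Soat1 is one of the 18 markers that set the cells apart, so this contrast is part of the choice. In IMQ the separation of Cst6 was not seen in replicate 1, where the sebaceous-rich cells held 6625 unscaled CPM and the rest 2203.

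A further portion of the Krt79 cells carried keratins of differentiation. Cells with at least 20 UMIs per 10000 of Krt1 and Krt10 together made up 28.4% and 11.8% of the Krt79 cells of Sham, 38.6% and 34.3% of those of IMQ and 34.7% and 38.9% of those of IMQ+SHP099. The IMQ mean was 16.4 points above that of Sham (pooled SD 8.57 points), and the libraries did not overlap (exact two-sided permutation test, p = 0.333, the smallest that 2 libraries against 2 allow). Among other keratinocytes the same share had a mean of 24.0% in Sham and 48.7% in IMQ. That rise was 24.7 points (pooled SD 4.30 points), also without overlap, so a rise in this share was not particular to the Krt79 cells. In Sham the Krt79 cells with Krt1 and Krt10 held 955 and 518 unscaled CPM of Lor, the main protein of the cornified envelope, and the remaining Krt79 cells far less (at most 23). In IMQ the S100a8 level was 9055 and 8984 unscaled CPM in the Krt1 and Krt10 cells and 4234 and 4003 in the rest. Lcn2 had the opposite order there, at 346 and 304 against 943 and 554 unscaled CPM.

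The share of keratinocytes that were Krt79 cells differed as much between the Sham libraries as between groups. Sham gave 5.17% (95% Clopper-Pearson interval 4.51% to 5.88%) and 24.3% (21.6% to 27.1%), with 24.8% (21.9% to 27.8%) and 31.7% (27.7% to 35.9%) in the libraries of IMQ and 12.3% (11.2% to 13.5%) and 34.7% (29.5% to 40.1%) in those of IMQ+SHP099. These intervals cover counting error only, and the libraries of a group lay far outside each other's intervals in Sham and in IMQ+SHP099. The group means were 14.7% ± 13.5 (SD, n = 2) in Sham, 28.2% ± 4.87 (SD, n = 2) in IMQ and 23.5% ± 15.8 (SD, n = 2) in IMQ+SHP099. IMQ minus Sham was 13.5 points (exact permutation p = 0.333) and IMQ+SHP099 minus IMQ was -4.76 points (exact permutation p = 1). As a share of all kept cells the Krt79 cells made up 1.53% to 4.51% of a library, and the direction of both differences was reversed. With every cell thinned to 2000 UMIs, IMQ minus Sham in the share of keratinocytes was 9.95 points (exact permutation p = 0.667). The libraries then overlapped, with IMQ replicate 1 at 21.8% and Sham replicate 2 at 25.0%. Keratinocytes numbered 4161 in Sham replicate 1 and 326 to 3189 in the other libraries, so that the yield of other keratinocytes moved with the share, and its part in the difference was not tested. The Krt79 limit was reached in 0.0626% to 0.321% of collagen-rich cells.

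**Figure D2:**
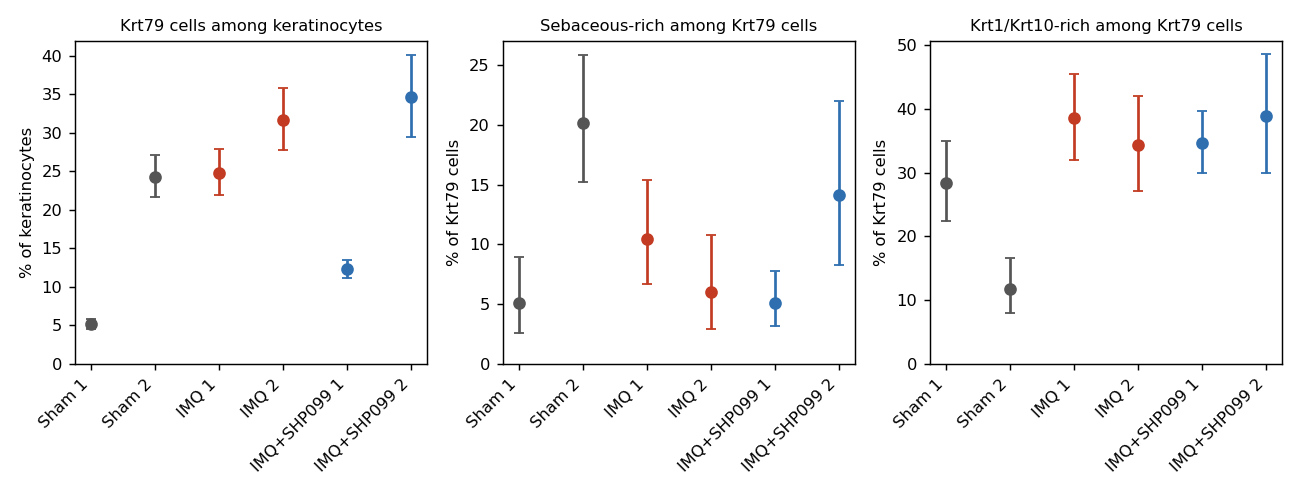
Percent of keratinocytes that were Krt79 cells, percent of Krt79 cells rich in sebaceous markers and percent rich in Krt1 and Krt10, by library, with 95% Clopper-Pearson bars. Sham replicate 1 has the lowest Krt79 share (5.17%), and the Krt1 and Krt10 share is higher in the 4 treated libraries (34.3% to 38.9%) than in Sham.

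Imiquimod changed the Krt79 cells broadly. Calprotectin, the keratins of wounded epidermis, stefins, serpins and lipocalin rose, and Lor, the keratins Krt15 and Krt77, the chemokine Ccl27a and genes of the follicle's isthmus fell. Of 10496 genes tested, 227 (2.16%) were higher in IMQ than in Sham and 439 (4.18%) lower (edgeR quasi-likelihood test, Benjamini-Hochberg adjusted p under 0.05), 666 in all (6.35%), and 25.6% had an unadjusted p under 0.05. The libraries of the groups did not overlap for 29% of all genes in the higher and 31.6% in the lower direction. The count depended on which library was left out: 452 genes were called without Sham replicate 2, the library that stood apart, 911 without Sham replicate 1, 91 without IMQ replicate 1 and 115 without IMQ replicate 2. Leaving out IMQ+SHP099 replicate 1 or 2 gave 300 and 319. These libraries are in neither group compared but enter the filter on low counts, the scaling and the estimate of the spread.

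The 3 keratins Krt6a, Krt6b and Krt16, which epidermis makes on wounding and in psoriasis, all rose. Krt6b was not counted in either Sham library, stood at 575 and 1270 CPM in IMQ, and was at least 948-fold higher against a floor of 3 UMIs in each library of the group. Krt6a rose from 152 and 75.4 CPM to 3116 and 4812 (log2 fold change 5.14 ± 0.55 SE, adjusted p = 0.00268 by edgeR). Krt16 rose from 229 and 38.8 CPM to 3910 and 6344 (5.29 ± 0.85, adjusted p = 0.0117). Krt6a and Krt6b are near-identical copies whose reads can be split unevenly. The calls of Krt6a and Krt6b were kept when any library was left out, and that of Krt16 was lost without either IMQ+SHP099 library (adjusted p = 0.0548 and 0.0531). In collagen-rich cells of the IMQ libraries, Krt6a was at 23.2 to 23.7 and Krt16 at 30.3 to 46 unscaled CPM, far below the Krt79 cells. Krt17 and Krt14, which the rule used, stood at 7966 and 11504 and at 12606 and 12924 CPM in IMQ, against 8561 and 5576 and 3211 and 2216 in Sham.

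Antimicrobial proteins rose in 7 of the 11 members tested, and none fell, with a median log2 fold change of 4.28 against -0.06 over all genes. S100a8 and S100a9 encode the subunits of calprotectin, which binds zinc and manganese and attracts neutrophils. S100a8 stood at 19.7 and 2.32 CPM in Sham and at 6174 and 6422 in IMQ (9.28 ± 0.99, adjusted p = 0.00254 by edgeR). S100a9 stood at 23.6 and 0.421 CPM in Sham and at 5480 and 5421 in IMQ (8.97 ± 1.34, adjusted p = 0.00881). The IMQ libraries lay close together for both genes while the Sham libraries, near the detection floor, were spread. Slpi, an inhibitor of neutrophil elastase, rose from 3.07 and 0.211 CPM to 91.1 and 188 (6.77 ± 1.27, adjusted p = 0.0209). The beta-defensins Defb3 and Defb14 rose from 1 and 3 UMIs in all of Sham to 33 and 83 UMIs in IMQ. With 1 library left out at a time, Defb3 kept its call in 1 of 6 fits, Defb14 in 2 and Slpi in 4, all 3 being lost without Sham replicate 2 and without IMQ replicate 2, and without either IMQ+SHP099 library that of S100a9 was lost (8.98 and 8.99, adjusted p = 0.0548 and 0.0527). That of S100a8 was kept when any library was left out.

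Lcn2, which encodes the iron-siderophore binding lipocalin 2, rose from 5.26 and 4.42 CPM to 712 and 456 (6.92 ± 0.53, adjusted p = 0.0018 by edgeR). Saa3, a serum amyloid A, was not counted in Sham and stood at 330 and 111 CPM in IMQ, at least 227-fold higher against the floor. Collagen-rich cells of the same IMQ libraries held more of both, with 2601 and 1018 unscaled CPM of Lcn2 and 22970 and 8937 of Saa3, and the part of free RNA in these 2 results was not tested. For S100a8 the collagen-rich cells held 89.5 and 330 unscaled CPM in IMQ, well under the Krt79 cells. Lcn2 was also unevenly spread within the Krt79 cells. In IMQ the sebaceous-rich ones held 2679 and 1435 unscaled CPM and the rest 525 and 413. Defb6, the defensin that marks these cells, stood at 6273 and 1980 CPM in Sham and 4275 and 5192 in IMQ, and did not pass the test (0.22 ± 0.56, adjusted p = 0.835).

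Stefins and serpins, inhibitors of cysteine and serine proteases, rose in 6 of 10 members tested, with a median log2 fold change of 5.38 (3.89 with genes uncounted in Sham at their bound). Stfa1 rose from 24.1 and 1.69 CPM to 629 and 781 (5.90 ± 1.00, adjusted p = 0.0146 by edgeR). Serpinb3a was counted with 3 UMIs in all of Sham and stood at 143 and 147 CPM in IMQ, a ratio of 340 (95% counting interval 116 to 1652). Serpinb6c rose from 0.438 and 0.843 CPM to 49.6 and 79.2 (6.45 ± 0.48, adjusted p = 0.0018). Rnase2b, a ribonuclease of the eosinophil-associated family, rose from 2.19 and 0.421 CPM to 126 and 101 (6.71 ± 0.61, adjusted p = 0.0018). Stefin A and Serpinb3 genes form clusters of near-identical copies, so the split of reads among copies is uncertain. With 1 library left out at a time, BC117090 and BC100530 kept their calls in 2 of 6 fits and Serpinb3d in 1 of the 5 that tested it, and that of Stfa1 was lost without either IMQ+SHP099 library (adjusted p = 0.0585 and 0.0569).

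Cornified envelope genes moved both ways. Of 16 tested, Sprr2d and Sprr2h rose and Lor fell, with a median log2 fold change of 0.37. Sprr2d, a small proline-rich protein of the envelope, was counted once in Sham and stood at 84.2 and 132 CPM in IMQ (ratio 749, 95% counting interval 134 to 29600). Lor fell from 310 and 40 CPM to 0.582 and 0.443 (-8.29 ± 1.26, adjusted p = 0.00915 by edgeR), although the share of cells with Krt1 and Krt10 was higher in IMQ. Among the suprabasal keratins, Krt77, a partner of the early differentiated layers, fell from 1323 and 796 CPM to 2.71 and 18.2 (-6.67 ± 0.88, adjusted p = 0.0058). Krt1 rose from 501 and 302 CPM to 2898 and 3150 (2.92 ± 0.42, adjusted p = 0.00818). Krt10, the usual partner of Krt1, stood at 2184 and 822 CPM in Sham and 932 and 1020 in IMQ (-0.61 ± 0.48, adjusted p = 0.465). A rise was thus called for Krt1 and no change for Krt10, whose Sham libraries lay on either side of those of IMQ. The calls of Krt77 and Sprr2d were kept when any library was left out, and without either IMQ library those of Lor (adjusted p = 0.0694 and 0.0544) and Krt1 (0.0703 and 0.0679) were lost.

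Genes of the follicle itself fell or were not called. Krt15, a keratin of the bulge and of basal cells, fell from 2582 and 779 CPM to 6.4 and 14.6 (-7.31 ± 1.15, adjusted p = 0.011 by edgeR). Lrig1 and Lgr6 mark the stem cell zones of the isthmus. Lrig1 fell from 81.5 and 72 CPM to 20 and 20.1 (-1.93 ± 0.32, adjusted p = 0.0134), and Lgr6 from 26.3 and 19.4 to 0.776 and 2.21 (-3.92 ± 0.49, adjusted p = 0.00494). Gata6, a transcription factor of the sebaceous duct and upper follicle, fell from 106 and 64.9 CPM to 19.8 and 16.4 (-2.22 ± 0.32, adjusted p = 0.00794). Of the 18 upper hair follicle markers tested, 5 fell (Alox12e, Fst, Nrp2, Gata6 and Dpysl3) and 2 rose, Mgst2 among them, with a median of -0.51. Alox12e fell from 249 and 301 CPM to 22.5 and 28.3 (-3.44 ± 0.31, adjusted p = 0.0018). Cst6 did not pass the test (-1.19 ± 0.61, adjusted p = 0.256). With 1 library left out at a time, Fst and Nrp2 kept their calls in 1 of 6 fits and Dpysl3 in 2. Without either IMQ library, 2 of the 7 calls in this list were kept, and the calls of Krt15, Lrig1 and Gata6 were lost (adjusted p by edgeR from 0.0533 for Krt15 to 0.152 for Lrig1). Those of Lgr6 and Alox12e were kept when any library was left out.

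The basal layer list had 4 members that fell among 8 tested, with a median log2 fold change of -2.16. Col17a1, a collagen of the hemidesmosome, fell from 344 and 67.6 CPM to 20.4 and 18.6 (-3.37, adjusted p = 0.0281 by edgeR). Ccnd2, a D-type cyclin, fell from 157 and 201 CPM to 44.6 and 34.8 (-2.18, adjusted p = 0.00704). The sebaceous gland list had 3 that fell among 14 tested (Elovl6, Soat1 and Acsbg1), with Elovl6, a fatty acid elongase, at 111 and 671 CPM in Sham and 27 and 36.3 in IMQ. The calls of Col17a1, Ccnd2 and Elovl6 were lost without either IMQ library (adjusted p from 0.0863 for Ccnd2 to 0.192 for Elovl6), and those of Col17a1 and Elovl6 without either IMQ+SHP099 library as well. Soat1 kept its call in 1 of 6 such fits. The high value of Elovl6 came from Sham replicate 2, which had the most sebaceous-rich cells. With those cells left out, a choice made after the data were seen, Elovl6 gave -0.59 (adjusted p = 0.265) and Acsbg1 -0.63 (adjusted p = 0.329). Both genes are among the markers by which those cells were set apart, so these smaller values are in part a result of the choice.

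Other genes named by size were lowered in both IMQ libraries. Tm4sf1, a tetraspan membrane protein, fell from 156 and 227 CPM to 3.88 and 3.54 (-5.69 ± 0.50, adjusted p = 0.0018 by edgeR). Pkib, an inhibitor of protein kinase A, fell from 190 and 57.5 CPM to 1.36 and 5.09 (-5.25 ± 0.91, adjusted p = 0.0155). Cbs, the cystathionine beta-synthase of cysteine synthesis, fell from 28.9 and 15 CPM to 0.388 and 0.443 (-5.60 ± 0.57). Skint10, of a family expressed in epidermis and thymus, fell from 33.7 and 15.8 CPM to 0.194 and 0.664 (-5.77 ± 0.63). Serpina3b, Serpina3j, Cyp2g1, Ces1d and Nectin3 completed the list, and Nectin3 rested on Sham replicate 2, at 76.9 CPM against 3.94 in Sham replicate 1, and gave -1.85 without it (adjusted p = 0.281). The call of Pkib was lost without IMQ replicate 1 (-4.55, adjusted p = 0.108).

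**Figure D3:**
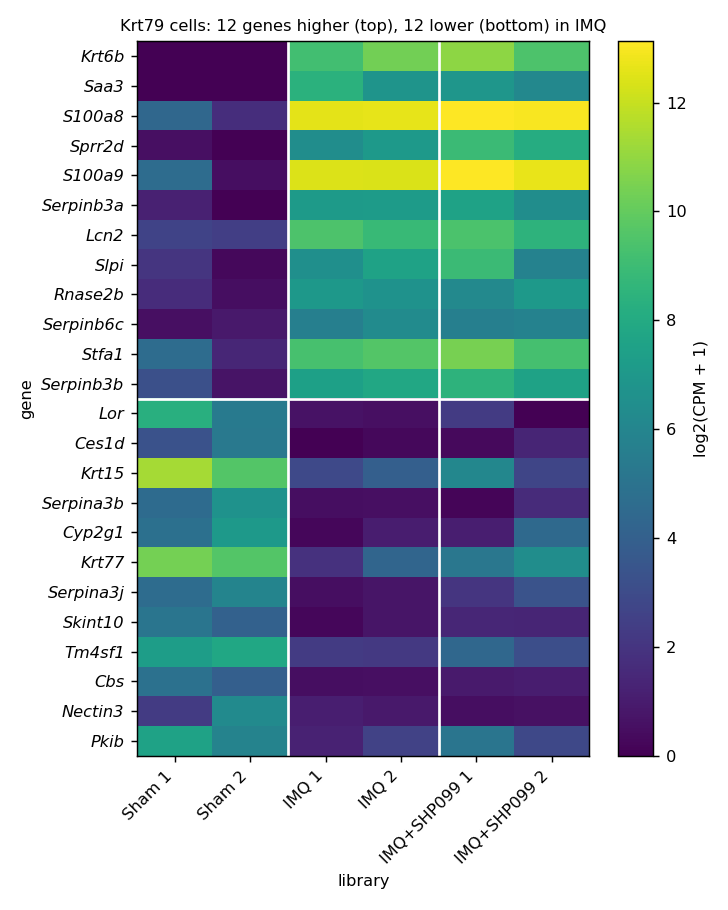
Levels of the 12 named genes raised most (top) and the 12 lowered most (bottom) in the Krt79 cells of IMQ against Sham, as log2(CPM + 1), in the 6 libraries. The IMQ+SHP099 columns resemble the IMQ columns, with Krt15, Krt77 and Pkib somewhat higher in IMQ+SHP099 replicate 1 than in either IMQ library.

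Genes of signalling and metabolism also moved in the Krt79 cells. The list counts here and in the next 2 paragraphs stand beside 2.16% raised and 4.18% lowered over all genes tested. Among chemokines and cytokines of keratinocytes, 3 of 18 rose and 3 fell, with a median log2 fold change of 0.08 against -0.06 over all genes. Cxcl2, which attracts neutrophils, rose from 2.63 and 4.21 CPM to 48.1 and 54.2 (3.81 ± 0.40, adjusted p = 0.00254 by edgeR), while collagen-rich cells held 158.6 and 126.7 unscaled CPM. Il24 rose from 3.07 and 1.47 CPM to 38.6 and 20.4 (3.81 ± 0.78), and Il19, of the same interleukin 20 family, was not counted in Sham and stood at 10.7 and 10.6 CPM in IMQ, with 10.52 and 7.18 unscaled CPM in collagen-rich cells. Ccl27a, a chemokine that draws T cells to skin, fell from 1341 and 606 CPM to 81.4 and 94.3 (-3.45 ± 0.51, adjusted p = 0.00831). Of 8 members of the epithelial interleukin 1 family, the receptor antagonist Il1rn rose, from 33.3 and 15.6 CPM to 70.6 and 98.7 (1.83, adjusted p = 0.0291), a call that held in 1 of 6 fits with a library left out. Without either IMQ library the call of Ccl27a was lost (adjusted p = 0.11 and 0.0865), and Il24 lost it without Sham replicate 2 or IMQ replicate 1 (adjusted p = 0.134 and 0.117).

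Of 15 genes of MHC class I presentation, 5 fell and none rose, and 1 had a log2 fold change above 0. The list's median was -1.46 against -0.06 over all genes. The non-classical class I genes H2-Q6 and H2-Q7 stood at 179 and 54.1 CPM and at 305 and 102 CPM in Sham, and at 3.49 and 3.32 and at 9.89 and 21.7 in IMQ. Nlrc5, the transactivator of class I genes, fell from 35.9 and 22.3 CPM to 7.56 and 9.96 (-1.71, adjusted p = 0.0278 by edgeR), and the peptide transporter Tap1 from 92.4 and 62.1 to 26.4 and 29.4 (-1.46, adjusted p = 0.0413). B2m, the invariant chain, did not pass the test (-0.63, adjusted p = 0.323). The level was higher in Sham replicate 1 than in Sham replicate 2 for each of the 4 genes given by library, and only H2-Q6 kept its call among the 5 when any library other than Sham replicate 2 was left out. Of 8 interferon-stimulated genes, Ifi27l2a and Irf9 passed the test as lower, but with 1 library left out at a time Ifi27l2a kept its call in 2 of 6 fits and Irf9 in 0.

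Fabp5, an epidermal fatty acid binding protein, rose from 1166 and 2100 CPM to 19298 and 25824 (3.78 ± 0.57, adjusted p = 0.00881 by edgeR). Glutathione and aldehyde metabolism had 6 members that rose and 2 that fell among 19 tested. Gpx2, a glutathione peroxidase, rose from 7.44 and 6.74 CPM to 212 and 386 (5.4 ± 0.57, adjusted p = 0.00254). Glycolysis and hypoxia genes had 6 that rose among 19, and 18 had a log2 fold change above 0. Ldha, lactate dehydrogenase A, rose from 208 and 141 CPM to 654 and 750 (2.01 ± 0.44, adjusted p = 0.033). The glycolysis calls depended on the libraries, with 5 of 6 kept without Sham replicate 1, 1 without Sham replicate 2 and 0 without either IMQ library. Ctsl, the cathepsin L that cystatin M/E inhibits, was the only member to rise among 13 kallikreins, proteases and their inhibitors, from 59.1 and 33.7 CPM to 219 and 373 (2.69 ± 0.40, adjusted p = 0.00868). Among transcription factors, Ovol1 rose from 53.4 and 68.7 CPM to 299 and 261 (2.19 ± 0.32, adjusted p = 0.00818). Prdm1, also known as Blimp1 and a regulator of late epidermal differentiation, rose from 15.8 and 8 to 43.2 and 59.8 (2.17). Without either IMQ library the calls of Ovol1 (adjusted p = 0.0931 and 0.0575) and Prdm1 (0.0773 and 0.14) were lost, and without IMQ replicate 2 those of Fabp5 (0.0575) and Ctsl (0.0757). Prdm1 also lost it without Sham replicate 2. Of the glutathione and aldehyde genes called, Gsto1, Hmox1, Nqo1 and Cyp2b19 kept the call in 1 of 6 such fits, Gsta4 in 2 and Cyp1a1 in 3, and that of Gpx2 was kept when any library was left out. No member of 20 immediate early genes was called.

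**Figure D4:**
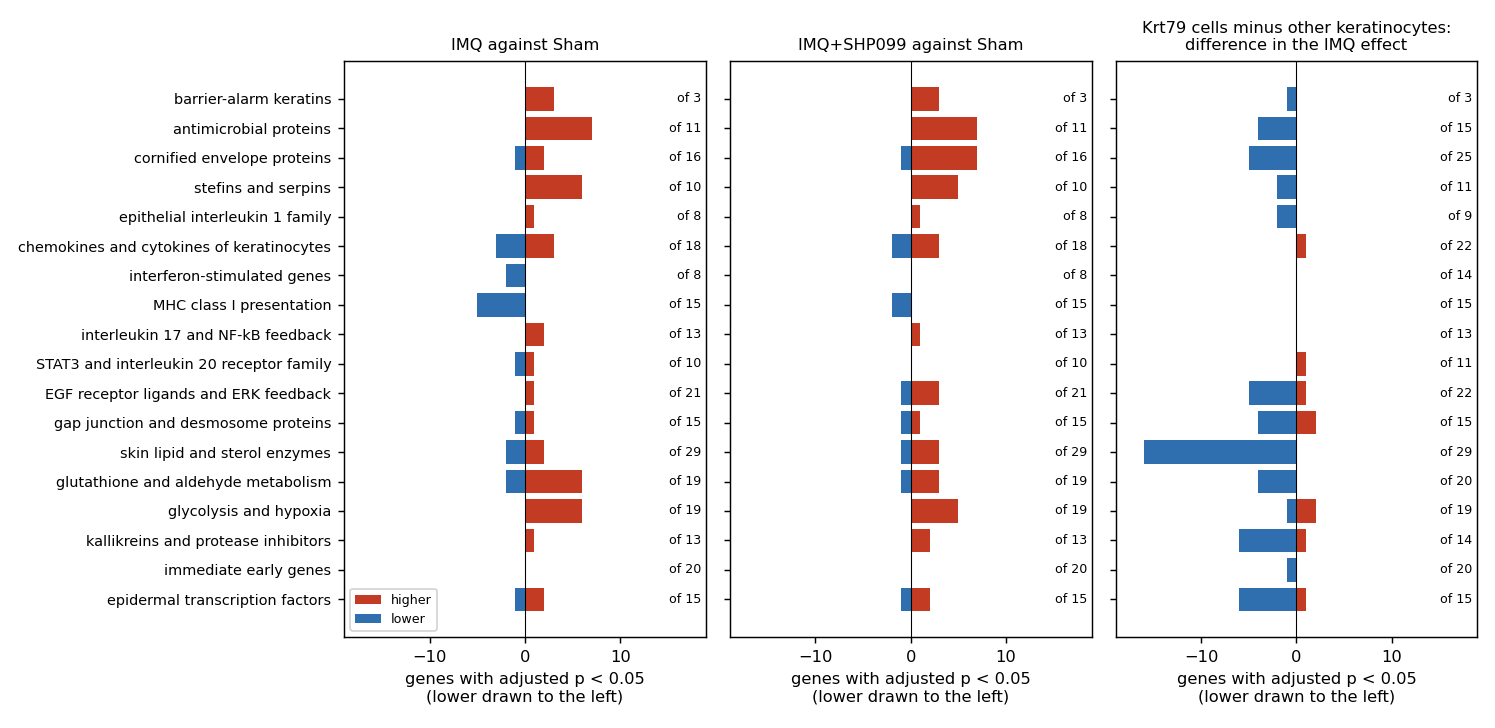
Number of genes called higher (right) and lower (left) at adjusted p under 0.05 in each of 18 gene lists, in the Krt79 cells of IMQ against Sham, in those of IMQ+SHP099 against Sham, and in the difference of the IMQ effect between Krt79 cells and other keratinocytes. Antimicrobial proteins have 7 higher in each comparison with Sham, and the difference has mostly lower calls, with 16 among skin lipid and sterol enzymes.

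Adding SHP099 to imiquimod gave no call at the same threshold. Of 10496 genes, 0 (0%) passed in either direction by edgeR, 211 (2.01%) had an unadjusted p under 0.05, and DESeq2 called 3. In simulated counts the edgeR test of IMQ against Sham recovered 3% of 2-fold and 76.8% of 4-fold changes. The lack of calls thus does not show that 2-fold changes were absent. The libraries of IMQ+SHP099 and IMQ did not overlap for 15.7% of genes in the higher and 12% in the lower direction. Ptpn11, which encodes SHP2, the target of SHP099, stood at 34.6 and 46.3 CPM in the Sham libraries, 28.3 and 28.6 in those of IMQ and 33.4 and 26.5 in those of IMQ+SHP099. S100a8 stood at 8762 and 8177 CPM in IMQ+SHP099 (0.43 ± 0.68 against IMQ), Krt6b at 1913 and 701 (0.51 ± 0.56), Krt16 at 6651 and 3841 (0.04 ± 0.70) and Krt6a at 5754 and 3850 (0.28 ± 0.46). The standard errors leave room for a change of either sign in each of these 4 genes.

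Some genes lay outside the IMQ range in both IMQ+SHP099 libraries without passing the test. Cst6 stood at 14774 and 8018 CPM, near the Sham range, against 2595 and 5245 in IMQ (1.54 ± 0.61, edgeR unadjusted p = 0.0335, adjusted p = 1). Defb6 stood at 7730 and 12276 CPM against 4275 and 5192 (1.08 ± 0.57, adjusted p = 1). Sprr2d stood at 489 and 274 CPM against 84.2 and 132 (1.82 ± 0.42, unadjusted p = 0.00198, adjusted p = 1). Tm4sf1 stood at 19.9 and 7.79 CPM against 3.88 and 3.54 (1.98, unadjusted p = 0.0023, adjusted p = 1), and Krt77 at 36.3 and 84.1 against 2.71 and 18.2 (2.53 ± 0.76, unadjusted p = 0.00887). Of the 16 cornified envelope genes, 15 had a log2 fold change above 0, with a median of 1.52, and of 15 genes of MHC class I presentation 14 did, with a median of 0.49, against 0.03 over all genes. The shift of MHC class I was not particular to that list. Medians were 0.50 for antimicrobial proteins, 0.57 for kallikreins and protease inhibitors, 0.58 for sebaceous gland markers and 0.48 for suprabasal markers. Glycolysis and hypoxia genes had a median of 0.01, and glutathione and aldehyde metabolism one of -0.33. These shares and medians carry no test.

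Against Sham, the Krt79 cells of IMQ+SHP099 had 244 genes higher (2.32%) and 330 lower (3.14%), 574 in all (5.47%), and 26% had an unadjusted p under 0.05. This comparison shares its Sham libraries with the one above. Krt6b was at least 1344-fold higher against the floor, Saa3 at least 96.9-fold and Sprr2b at least 62.7-fold. S100a8 rose (9.71 ± 1.00, adjusted p = 0.00349 by edgeR), and the 7 antimicrobial proteins called were again matched by no lower call. Cornified envelope genes had 7 that rose of 16, among them 6 Sprr2 genes and the transglutaminase Tgm1, while Lor fell (-5.97 ± 1.05, adjusted p = 0.0217), as did Krt15 (-5.47 ± 1.05, adjusted p = 0.0269). Among ligands of the EGF receptor and feedback genes of ERK, Areg, Epgn and Btc rose and Spred2 fell of 21 tested. Areg, amphiregulin, stood at 37.7 and 74.8 CPM in the Sham libraries, 160 and 228 in those of IMQ and 734 and 196 in those of IMQ+SHP099 (3.03 against Sham, adjusted p = 0.0335). Its highest value came from IMQ+SHP099 replicate 1. With 1 library left out at a time, Areg, Spred2 and Tgm1 kept their calls in 1 of 6 fits and Epgn and Btc in 3. Without that library edgeR called 0 genes in this comparison, with 1744 at an unadjusted p under 0.05. It called 60 without IMQ+SHP099 replicate 2, 253 without Sham replicate 2 and 964 without Sham replicate 1.

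The change from Sham to IMQ in the Krt79 cells was next compared with that in the other keratinocytes of the same libraries, with the library as a block. Of 12160 genes, 205 (1.69%) had a higher log2 change in the Krt79 cells and 479 (3.94%) a lower one (edgeR interaction term, adjusted p under 0.05). In all 684 (5.62%) were called, and 20.7% had an unadjusted p under 0.05. Without IMQ replicate 1 the count was 152, without IMQ replicate 2 it was 370, and in cells with little Krt1 and Krt10 it was 426. The share of cells rich in Krt1 and Krt10 rose from Sham to IMQ by 16.4 points among Krt79 cells and by 24.7 points among the others.

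In other keratinocytes Cst6 was higher in IMQ (461 and 779 CPM) than in Sham (99.8 and 45.2), whereas in Krt79 cells the IMQ values were 2595 and 5245 against 13362 and 4756, a difference of -4.27 ± 0.24 (adjusted p = 0.000244 by edgeR). Defb6 in other keratinocytes stood at 65.6 and 17.3 CPM in Sham and 693 and 1153 in IMQ, a difference of -4.30 ± 0.21 (adjusted p = 0.000202). Both calls were kept when any library was left out. Thinned to 2000 UMIs, other keratinocytes with a Defb6 UMI went from 3.99% and 1.68% in Sham to 37.3% and 39.2% in IMQ, and collagen-rich cells from 1.09% and 0.820% to 0.657% and 0.669%. Both genes were thus less restricted to Krt79 cells in IMQ than in Sham. Of the 18 upper hair follicle markers tested, 9 had a lower change in Krt79 cells and none a higher one (median -2.03).

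In IMQ, calprotectin stood at a lower level in the Krt79 cells than in other keratinocytes. S100a8 went from 19.7 and 2.32 CPM to 6174 and 6422 in Krt79 cells and from 0.595 and 0.209 to 25626 and 22505 in other keratinocytes (difference -6.71 ± 0.45, adjusted p = 0.000397 by edgeR). S100a9 had a difference of -7.09 ± 0.52 (adjusted p = 0.000506). The S100a9 call was lost without Sham replicate 1, where its difference was -3.71 (adjusted p = 0.192), and that library held most of the Sham UMIs of both genes in Krt79 cells. In it 44 S100a8 UMIs lay in the cells with Krt1 and Krt10 and 1 in the rest. Among Krt79 cells with little Krt1 and Krt10 the S100a8 difference was -4.32 and its call was lost (adjusted p = 0.116). Defb1, a further beta-defensin, stood at 376 and 92.7 CPM in the Krt79 cells of Sham and 259 and 187 in IMQ, and rose from 46.2 and 14.1 to 340 and 224 in the others (-3.21 ± 0.18, adjusted p = 0.000244). Pinlyp, an upper follicle marker that encodes a phospholipase inhibitor, stood at 41.6 and 199 CPM in Krt79 cells in Sham and 71.8 and 138 in IMQ, and rose from 2.42 and 2.16 to 116 and 112 in the others (-5.42 ± 0.67, adjusted p = 0.00376).

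Several other lists had mostly lower calls as well, against 3.94% lower and 1.69% higher over all genes tested. Kallikreins, proteases and inhibitors had 6 lower and 1 higher of 14, with Klk6 at -4.67 (adjusted p = 0.0043 by edgeR) and Klk7 at -2.26 (adjusted p = 0.00316), and Ctsl the higher one at 2.09 ± 0.20 (adjusted p = 0.00131). Cornified envelope genes had 5 lower of 25, with Sprr1a at 2391 and 495 CPM in Krt79 cells of Sham and 404 and 953 in IMQ, against 280 and 47.1 and then 1536 and 1227 in the others (-4.38 ± 0.45, adjusted p = 0.00188). Skin lipid and sterol enzymes had 16 lower of 29 and none higher (median -1.64), among them Fabp5 (-3.13 ± 0.26, adjusted p = 0.000834). With sebaceous-rich cells left out, Cyp51, Elovl6, Fasn, Fdft1 and Insig1 lost the call and Scd1, a fatty acid desaturase, turned from -1.99 to 0.80 (adjusted p = 0.0287), a choice made after the data were seen. Elovl6, Fasn and Scd1 are among the markers by which those cells were set apart, so their shifts are in part a result of the choice. The sebaceous list itself had 7 lower of 14. The basal layer list went the other way, with 3 higher (Trp63, Mt2 and Ccnd2) and 0 lower of 8 (median 0.66 against -0.03 over all genes). With 1 library left out at a time, Trp63 kept its call in 0 of 6 fits, Ccnd2 in 3 and Mt2 in 4. Glycolysis and hypoxia genes had 2 higher and 1 lower of 19.

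Genes with a higher change in Krt79 cells were fewer. Mt2, a metallothionein, stood at 715 and 123 CPM in the Krt79 cells of Sham and 1252 and 1258 in IMQ, and at 3098 and 1833 and then 1042 and 1152 in the others (3.19 ± 0.52, adjusted p = 0.0113 by edgeR). That call was lost without either IMQ library (adjusted p = 0.0751 and 0.0506). Myof, myoferlin of membrane repair, rose from 10.1 and 9.69 CPM to 60.5 and 51.4 in Krt79 cells and stood at 46.7 and 75.8 and then 53.2 and 62.2 in the others (2.62 ± 0.31, adjusted p = 0.00334). Scin, which severs actin filaments, had a difference of 2.63 ± 0.27 (adjusted p = 0.00185), and Tnfrsf19, a receptor of the tumour necrosis factor family known from hair follicles, one of 2.74 ± 0.34 (adjusted p = 0.00376). Ccl27a fell less in Krt79 cells than in the others (1.53 ± 0.19, adjusted p = 0.00376). The keratins differed less: Krt6a had a difference of -2.07 ± 0.33 (adjusted p = 0.0107, and 0.094 without IMQ replicate 1), Krt16 one of 0.25 ± 0.51 and Krt1 one of 0.58 ± 0.40, the last 2 not past the threshold.

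**Figure D5:**
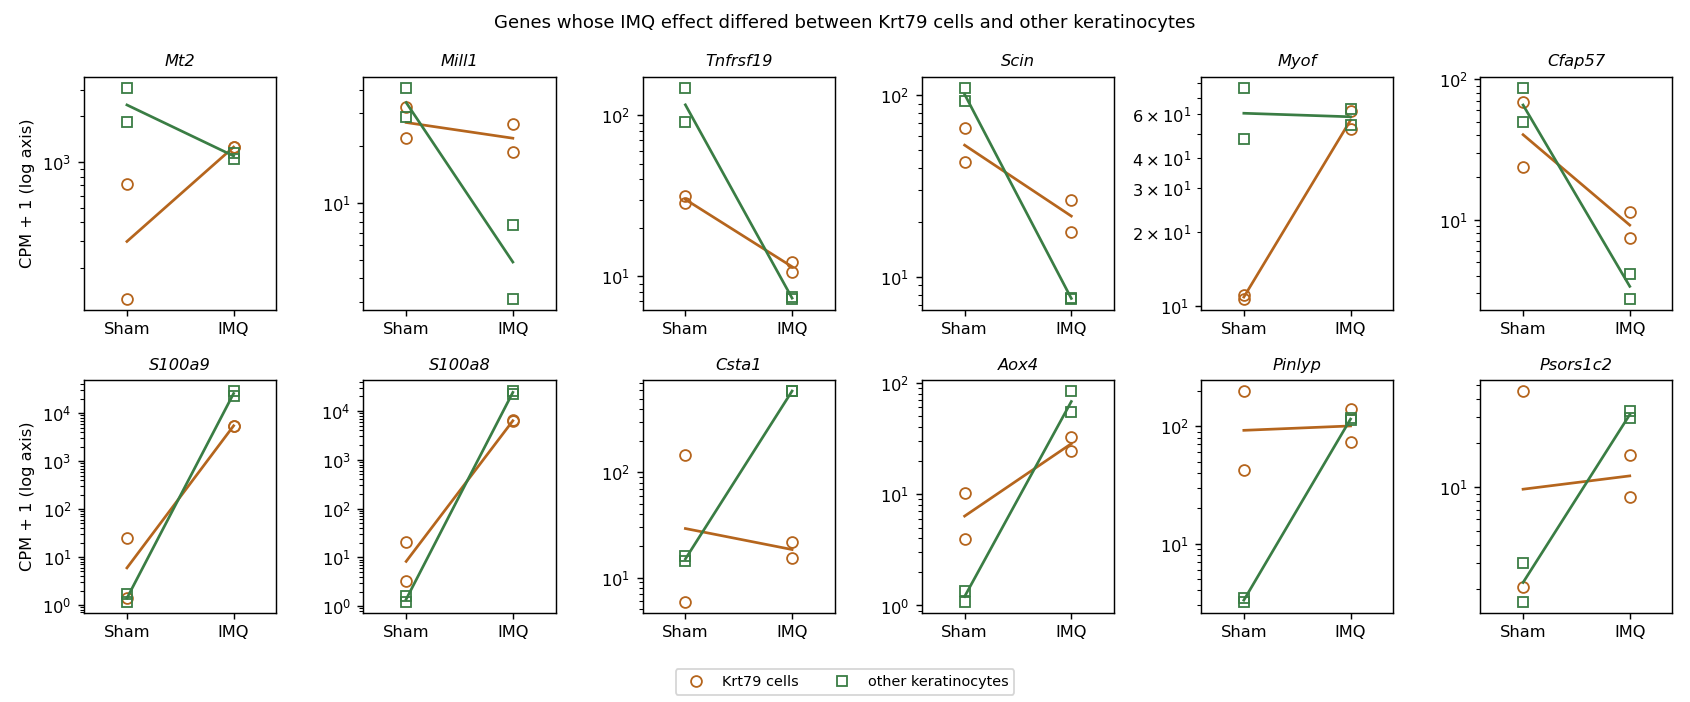
Levels of 12 genes in Sham and IMQ, as CPM + 1 on a log axis, in Krt79 cells and in other keratinocytes, with points for libraries and lines joining geometric means. The upper row holds 6 genes with a higher change in Krt79 cells and the lower row 6 with a lower one, such as S100a8, which in IMQ stood at 6174 and 6422 CPM in Krt79 cells and 25626 and 22505 in the others.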

How the data were processed

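For each of 6 droplet libraries of mouse dorsal skin, the authors deposited the count of UMIs of every gene in every barcode, made with Cell Ranger on GRCm38 (mm10), per the submitters' processing notes, without normalization. The files list 31053 genes, of which 31011 were found by identifier in GENCODE M21. Barcodes with fewer than 100000 UMIs, fewer than 6500 genes and under 10% mitochondrial UMIs were kept, as in the study. Doublets were not removed, and the top 6% of Scrublet scores were left out as an alternative.

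UMIs of Krt79 cells and of other keratinocytes were summed per library. edgeR 4.0.16 (R 4.3.3) tested the sums by its quasi-likelihood method with TMM, filterByExpr and the group as the term, all 6 libraries in 1 fit, and every adjusted p is from it with Benjamini-Hochberg adjustment over all genes tested. Genes of the rule and mitochondrial genes stayed in the sums and were not tested. The comparison with other keratinocytes used an interaction of cell kind and group with the library as a block. Shares were compared by exact permutation tests over libraries (scipy 1.17.1). The study compared cells by a rank-sum test, and cells of a library are not replicates. Scripts were tested on simulated counts with known changes. For IMQ against Sham in Krt79 cells, edgeR recovered 3% of 2-fold and 76.8% of 4-fold changes, and 8.14% of its calls were false. For the difference from other keratinocytes it recovered 0% and 12.1%, and 7.69% of its calls were false.

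Named genes had an adjusted p under 0.05, at least 20 CPM in the higher group and no overlap between libraries. They were the 12 with the largest fold change in each direction for IMQ against Sham and 5 for the other comparisons of groups. For the difference they were 6 by size in each direction, with an adjusted p under 0.05 and at least 20 CPM in some group of Krt79 cells. No limit on overlap was set there. Genes higher than in other keratinocytes were the 15 with the largest median ratio at 50 CPM or more. Further genes come from the marker and pathway lists. Members and lists were chosen with earlier results of these data known. Alternatives were RLE factors, no filter on low counts, DESeq2 1.42.0, other limits on Krt79, Krt1 and Krt10, doublets, sums of equal depth and each library left out. Some genes counted in the lists are not reported here by name.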

Additional observations from a re-analysis of the deposited data

Results flagged for a closer look

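A total of 14 genes are given because their log2 change from Sham to IMQ differed between Krt79 cells and other keratinocytes by the interaction test of edgeR. The difference is the change in Krt79 cells minus that in the others. It was higher in Krt79 cells for Mt2 (3.19), Mill1 (2.83), Tnfrsf19 (2.74), Scin (2.63), Myof (2.62) and Cfap57 (2.59). It was lower for S100a9 (-7.09), S100a8 (-6.71), Csta1 (-6.56), Aox4 (-6.04), Pinlyp (-5.42), Psors1c2 (-5.41), Defb6 (-4.30) and Cst6 (-4.27).

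Aox4, an aldehyde oxidase, stood at 9.2 and 2.95 CPM in the Krt79 cells of Sham and 23.5 and 31.9 in IMQ, and at 0.352 and 0.0696 and then 83.3 and 53.5 in the others (adjusted p = 0.00173 by edgeR). Csta1, a stefin of the cornified envelope, passed at adjusted p = 0.0463 and kept its call in 2 of 6 fits with a library left out. Psors1c2 gave -2.12 without Sham replicate 1 (adjusted p = 0.328) and S100a9 gave -3.71 (adjusted p = 0.192). S100a8 gave -4.32 among cells with little Krt1 and Krt10 (adjusted p = 0.116). Cst6, Defb6, Scin, Tnfrsf19, Myof, Aox4 and Pinlyp kept their calls in all 6 fits with a library left out.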

How the results depend on the processing

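Counts of genes from sums of 113 to 392 cells depended on the filter and on single libraries, and the cause was not tested. Without a filter on low counts, calls rose from 666 to 1714 for IMQ against Sham, from 0 to 71 for IMQ+SHP099 against IMQ, from 574 to 1645 for IMQ+SHP099 against Sham and from 684 to 1505 for the difference from other keratinocytes. DESeq2 called 3 genes for IMQ+SHP099 against IMQ and 907 for IMQ against Sham. In cells with little Krt1 and Krt10 the difference had 426 calls. With a library left out the counts ran from 91 to 911, 0 to 1, 0 to 964 and 152 to 771 in the same order, where a group left with 1 library is assumed to vary like the others. Single genes called in IMQ against Sham were followed, and with them Cst6 and Defb6, which were not called. With a library left out, 316 of their values kept the outcome, 222 lost the call and 1, that of Defb6, reversed in sign. Under other alternatives 922 kept the outcome and 56 lost the call. Defb6 in IMQ against Sham ran from -0.35 without Sham replicate 2 to 1.25 without Sham replicate 1. In the difference, Hbb-bs ran from -0.62 without Sham replicate 2 to 5.49 without Sham replicate 1, and Il1f6 from -6.44 without IMQ replicate 2 to 1.20 without Sham replicate 1. Scd1 gave 0.80 without sebaceous-rich cells, which it helped to define. The Krt79 share of keratinocytes, IMQ minus Sham, ran from 3.98 points without Sham replicate 1 to 23.1 without Sham replicate 2, and IMQ+SHP099 minus IMQ from -15.9 without IMQ+SHP099 replicate 2 to 6.43 without IMQ+SHP099 replicate 1. As a percent of all kept cells the same differences were -0.523 and 0.846 points.

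Replicate numbers did not pair the libraries (correlations of deviations -0.127 for Sham with IMQ, 0.215 for Sham with IMQ+SHP099 and -0.038 for IMQ with IMQ+SHP099). With the number as a block, 707, 0 and 585 genes were called in the 3 comparisons of groups. A block with the IMQ numbers crossed, chosen after the data were seen, gave 1166 for IMQ against Sham.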

Other observations

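Of 22 genes of EGF receptor ligands and ERK feedback, the change from Sham to IMQ was lower in Krt79 cells than in other keratinocytes for 5 (the ligands Areg, Ereg and Btc, and Dusp5 and Phlda1) and higher for 1 (Spred2), and the calls of Areg, Btc and Spred2 were lost without at least 1 of the libraries. Over all 12160 genes the change was lower for 3.94% and higher for 1.69%. The list's median difference was -0.33 against -0.03 over all genes. The genes named here were chosen after their values were seen. Ereg, epiregulin, stood at 26.7 and 8.64 CPM in the Krt79 cells of Sham and 31.8 and 49.1 in IMQ, and at 5.27 and 3.06 and then 481 and 320 in the other keratinocytes (difference -5.30 ± 0.64, adjusted p = 0.00347 by edgeR, kept in 6 of 6 fits with a library left out). Dusp5, a phosphatase that ERK signalling induces and that acts on ERK, stood at 170 and 67.4 CPM and then 48.3 and 42.7 in Krt79 cells, and at 57.6 and 21.6 and then 74 and 55.9 in the others (-2.10 ± 0.17, adjusted p = 0.000757, kept in 6 of 6).

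Of 15 gap junction and desmosome genes, the change was lower in Krt79 cells for 4, among them Gjb2, Gjb6 and Dsc2, and higher for 2 (Gjb5 and Dsg3), and without Sham replicate 2 or without IMQ replicate 1 the calls of 2 of these 6 were kept. Over all genes tested the shares were 3.94% lower and 1.69% higher. The list's median difference was -0.43 against -0.03 over all genes. Gjb6, which encodes connexin 30, stood at 7.88 and 12.2 CPM in the Krt79 cells of Sham and 7.18 and 13.3 in IMQ, and at 3.63 and 4.8 and then 93.8 and 72 in the others (-4.29 ± 0.52, adjusted p = 0.00347 by edgeR, kept in 6 of 6 fits). Gjb5 had the opposite sign (2.51 ± 0.38, adjusted p = 0.00886, kept in 5 of 6). In Krt79 cells the desmoglein Dsg3 rose from 19.3 and 12.8 CPM to 47.3 and 54.5 (1.69 ± 0.29, adjusted p = 0.0161), while Dsg2 fell from 29.3 and 25.3 to 6.01 and 4.87 (-2.31 ± 0.37, adjusted p = 0.0117). The call of Dsg3 was lost without Sham replicate 2 and without either IMQ replicate, and that of Dsg2 without either IMQ replicate.

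Cyp1a1, a target of the aryl hydrocarbon receptor, was counted with 76 UMIs in the Krt79 cells of Sham (6.57 and 12.8 CPM) and with 0 in those of IMQ. It was at least 15.6-fold lower against a floor of 3 UMIs in each library of the group. Its call was kept in 3 of 6 fits with a library left out, and IMQ+SHP099 held 19 UMIs. Other keratinocytes held at most 0.022 CPM in any library. Mgst1, a microsomal glutathione transferase, stood at 375 and 653 CPM in the Krt79 cells of Sham and 521 and 406 in IMQ, and at 29.3 and 27.6 and then 262 and 247 in the others (-3.26 ± 0.30, adjusted p = 0.00125 by edgeR). Socs1, a feedback inhibitor of cytokine receptors, rose in Krt79 cells from 10.1 and 8.43 CPM to 45.2 and 30.8 (2.05 ± 0.34, adjusted p = 0.0131), kept in 4 of 6 fits.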
